A study of Rattus norvegicus with 12 samples.

Results

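Chemokines, interleukins and the receptors that read them were measured in the striatum of rats with a one-sided loss of dopamine fibres, after saline, L-DOPA, or L-DOPA with zonisamide. Member genes were all those whose rat symbol starts with Ccl, Ccr, Cxcl, Cxcr or Il followed by a digit, without Cxcl10. The array held 118 probes for 108 such genes, out of 30367 probes in all. Of these, 56 probes for 52 genes were well above background on all 3 arrays of at least 1 group and were tested, among 19412 features tested in the whole series. Within this rule no level or change was used beyond the mark of detection, but the rule itself was chosen with earlier results of these data known. Of the 56 genes not tested, 32 were above background on no array and 24 on some arrays but on all 3 of no group.

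All tissue came from male Wistar rats whose left medial forebrain bundle, the tract of dopamine fibres to the striatum, had been injected with the dopaminergic toxin 6-hydroxydopamine. Rats entered the study if methamphetamine (3 mg/kg) made them turn 7 or more times a minute. In 2 groups of 3 arrays each the rats had saline, with either the non-lesioned or the lesioned striatum taken. In the other two, again 3 arrays each and always the lesioned side, they had L-DOPA (100 mg/kg), or that dose followed after 30 min by zonisamide (50 mg/kg). Injections were daily for 7 days, and L-DOPA, from which the brain makes dopamine, followed benserazide, which blocks its conversion outside the brain. Zonisamide, first an antiepileptic, is also given in Parkinson's disease. The "non-lesioned" tissue is the other hemisphere of injected rats, so no group came from rats without a lesion, and the labels do not state whether both saline groups came from the same animals. No group received zonisamide without L-DOPA.

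Chemokines are small secreted proteins, sorted as CC or CXC by the spacing of conserved cysteines, that draw leukocytes and microglia along a gradient through G-protein-coupled receptors. Interleukins act through receptor chains that signal by JAK and STAT proteins or, for the IL-1 and IL-18 group, by MyD88 and NF-kappa-B. The IL-1 group is also held in check by its own brakes, a receptor antagonist and a decoy receptor. In the healthy striatum most of these genes are expressed at low levels, mainly by microglia, endothelium and astrocytes, while Cxcl12, Cxcl14, Il33 and Il34 have well-known expression in brain cells.

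Levels below are log2 signals relative to the 75th percentile of each array, so that 0 is that percentile and negative values lie under it. They compare 1 probe between arrays and never 1 gene with another. A change is the difference of 2 group means on this log2 scale with limma's moderated standard error, and a gene was called when its two-sided p, adjusted by Benjamini-Hochberg over all 19412 features, was under 0.05. In bulk tissue, a difference in the number of cells of a type and a difference in RNA per cell cannot be told apart.

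The 75th percentile itself lay between 793 and 1737 intensity units, and 67.8% to 74.0% of probes were above background on an array. Markers of striatal spiny neurons were bright in every group, with mean levels over 8 genes from 3.19 to 3.85, and none of the 8 was called in any comparison. Markers of the choroid plexus, which lines the ventricle beside the striatum, varied widely: their mean level over 7 genes ran from -4.95 to -2.84 in lesioned saline arrays and from -2.57 to 1.45 in L-DOPA arrays. Over the 52 members the median residual SD was 0.43, against 0.34 over all features tested, and 41 of 52 were above background on all 12 arrays.

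Of the 5 members with the smallest p in the comparison of L-DOPA with saline, 3 had an entry among RefSeq's promoters of the GRCr8 assembly. Their promoters, 250 bases before to 50 bases after the annotated start, are shown because these genes had their highest levels after L-DOPA. Capitals mark the matches of a search, on both strands, for a kappa-B site, an AP-1 site (TGANTCA), a cAMP response element (TGACGTCA), a GAS site read by STAT proteins (TTCNNNGAA) and a TATA box (TATAAA). The Cxcl16 window, chr10:55669901-55670200 on the minus strand, held none of these letters.
Cxcl16: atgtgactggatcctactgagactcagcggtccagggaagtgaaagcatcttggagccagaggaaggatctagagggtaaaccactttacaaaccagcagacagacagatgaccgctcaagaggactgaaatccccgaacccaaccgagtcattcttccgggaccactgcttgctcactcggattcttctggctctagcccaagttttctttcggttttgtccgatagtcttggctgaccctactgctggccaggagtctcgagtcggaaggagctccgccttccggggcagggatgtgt
The Ccl17 window, chr19:10209846-10210145 on the minus strand, held a GAS match beginning 13 bases before the start.
Ccl17: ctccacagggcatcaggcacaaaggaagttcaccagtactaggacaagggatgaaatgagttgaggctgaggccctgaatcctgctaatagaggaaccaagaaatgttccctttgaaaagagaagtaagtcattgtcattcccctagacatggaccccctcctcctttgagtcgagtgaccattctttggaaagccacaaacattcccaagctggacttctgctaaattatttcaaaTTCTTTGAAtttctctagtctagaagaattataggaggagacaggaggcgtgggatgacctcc
The Il1rn window, chr3:27520072-27520371 on the plus strand, held a TATA box on the opposite strand, beginning 64 bases before the start.
Il1rn: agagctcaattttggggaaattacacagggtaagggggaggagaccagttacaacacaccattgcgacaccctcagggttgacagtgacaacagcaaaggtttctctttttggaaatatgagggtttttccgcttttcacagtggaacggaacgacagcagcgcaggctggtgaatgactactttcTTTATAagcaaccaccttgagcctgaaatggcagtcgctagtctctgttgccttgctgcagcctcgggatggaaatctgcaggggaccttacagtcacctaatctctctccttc

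Of the 52 tested members, 39 had a promoter in the table. The AP-1 letters were in 7 of the 39 (17.9%), those of Cxcl14, Il11, Il15, Il16, Il18, Il1a and Il9, and in 7.33% of 27457 promoters in all. GAS letters were in 5 (12.8%, against 8.68% of all), those of Ccl17, Ccl24, Ccr6, Il10rb and Il18r1. The kappa-B letters were in Ccl9, Il1rap and Il4r, 7.69% of the members against 7.60% of all promoters, the cAMP element in no member against 1.91%, and the TATA box in 9 members (23.1%) against 14.3%. These are counts of letters in a window and not of sites that were shown to be bound.

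**Figure D1:**
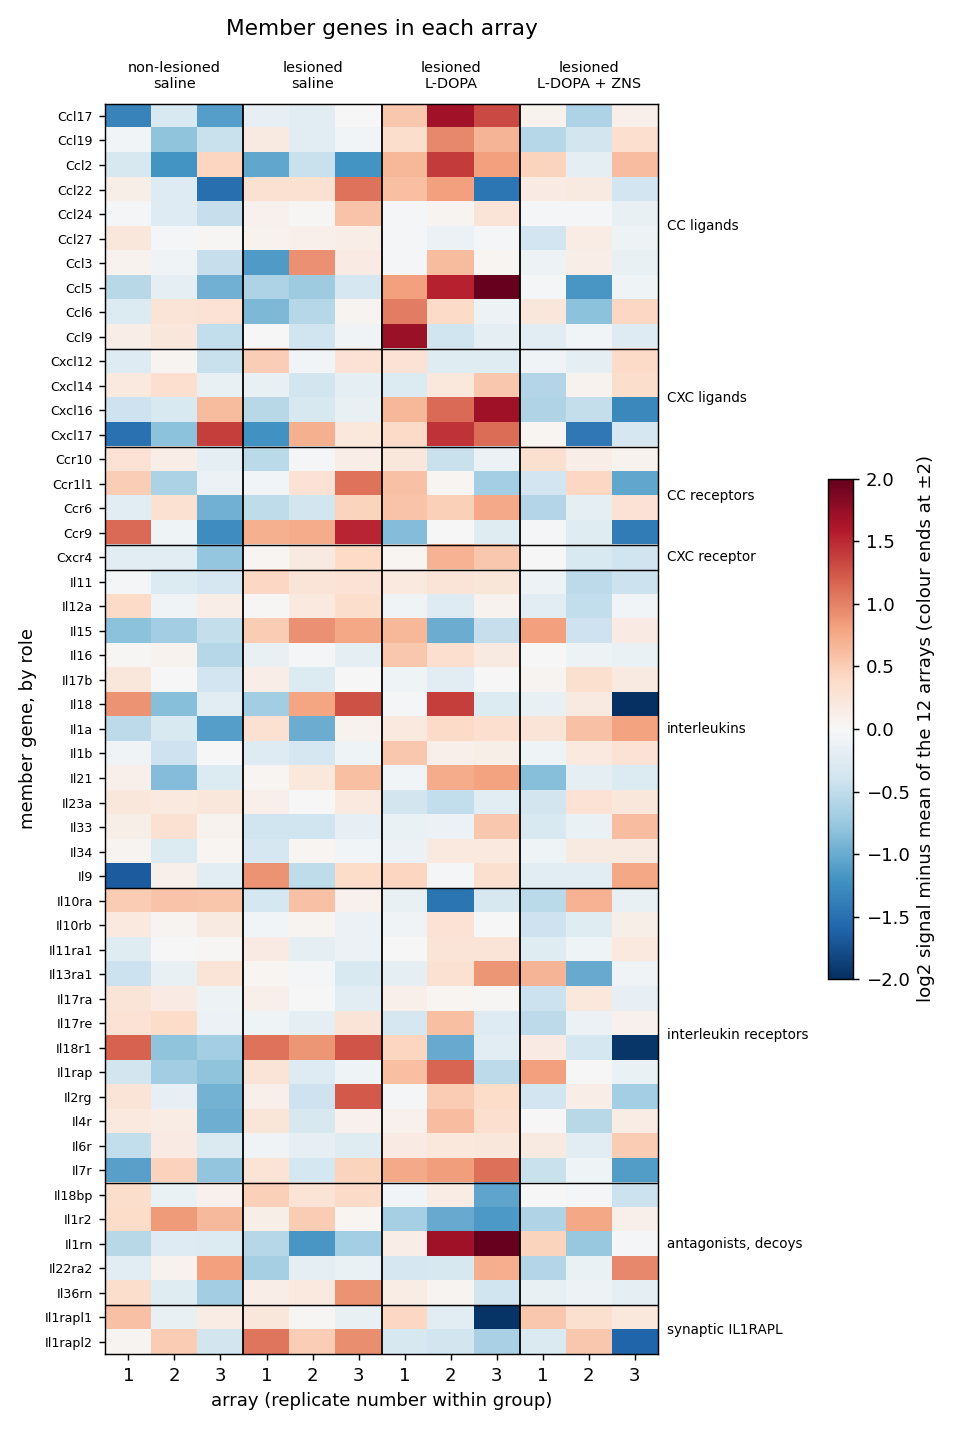
Signal of 51 of the 52 tested members (rows, ordered by role) on each of the 12 arrays (columns, 3 per group), as the difference in log2 from that gene's mean over the arrays, with colour ending at 2 in either direction. Ccl17, Ccl19, Ccl2, Ccl5, Ccr6, Cxcl16, Cxcl17 and Il7r are red in all 3 L-DOPA columns, and Il1r2 is blue in them. Most other rows are pale or differ within a group.

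The question of which members differ at all between the 4 groups was put by an F test over the groups. No member of 52 passed, against 0.273% of all features, and 14 of 52 had an unadjusted p under 0.05, against 11.8% of all features. In the comparison of L-DOPA with lesioned saline no member was called higher, where 0.33% of all features were, and none lower, where 0.103% were. In the comparison of L-DOPA with and without zonisamide 1 member, Cxcl16, was called lower, against 0.392% of all features, and none higher, against 0.0876%. This fit held no pairing, and with arrays paired by replicate number no member was called lower. With limma, no member and no other feature was called for the lesion or for both drugs against saline, where the shares called were 0% in each direction. An unadjusted p under 0.05 was found in 5 members higher and 0 lower for the lesion, against 6.33% and 2.15% of features, and in 2 higher and 7 lower for both drugs, against 1.91% and 5.42%. Both drugs and saline did not overlap in 1 member that was higher and 10 that were lower, against 6.57% and 11.6% of features. The 1 was Ccl2, which was not above background on every saline array. Il18r1 and Il21, among the 10, were not above it on every zonisamide array. For these the filter favours the direction.

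Among the CC chemokines, Ccl5, Ccl2, Ccl17 and Ccl19 each had their 3 highest levels on the L-DOPA arrays. Of 19 CC ligand genes on the array 10 were tested, and 7 of the 10 were higher with L-DOPA than with saline (median change 0.62, against -0.03 over all features). All 10 were lower with zonisamide than without it (median -0.52, against -0.03 over all features), of which 3 had an unadjusted p under 0.05; under the other scalings 8 or 9 of the 10 were lower. None of the 10 was called in either comparison. These comparisons share the 3 L-DOPA arrays, so a gene that is high on those arrays is high in the one and low in the other.

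Ccl5 (RANTES) draws T cells and monocytes. Its level was -3.33, -2.96 and -3.73 on the non-lesioned arrays, -3.39, -3.48 and -3.10 after saline, -1.95, -1.23 and -0.46 after L-DOPA, and -2.80, -3.93 and -2.86 after L-DOPA with zonisamide. All 3 L-DOPA arrays lay above the other 9, and the other groups overlapped. With L-DOPA it was higher by 2.11 ± 0.40 (4.31-fold; 95% interval 1.21 to 3.00; adjusted p = 0.0630), and with zonisamide added its change was -1.98 ± 0.40 (adjusted p = 0.0664), neither of which passed.

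Ccl2 (MCP-1), the main attractant of monocytes through CCR2, had levels of -6.26, -7.13 and -5.51 on non-lesioned arrays, -6.98, -6.39 and -7.14 after saline, -5.27, -4.53 and -5.12 after L-DOPA, and -5.49, -6.11 and -5.33 with zonisamide. Its signal was weak, above background on 1 of 3 saline arrays and 2 of 3 non-lesioned arrays and on all 6 arrays of both drug groups. Ccl2 passed the filter only through the drug groups, so a level there above saline follows in part from how it came to be tested. Both drug groups lay above saline, and the L-DOPA arrays above those with zonisamide. The change with L-DOPA was 1.86 ± 0.40 (adjusted p = 0.0909), and with zonisamide added -0.67 ± 0.40 (adjusted p = 0.554). Against saline, both drugs gave 1.19 ± 0.40 (adjusted p = 0.656). After normexp background correction with quantile normalization the L-DOPA change of Ccl2 was 0.46.

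Ccl17 (TARC), a ligand of CCR4, had levels of -4.29, -3.26 and -4.05 on non-lesioned arrays, -3.12, -3.16 and -2.95 after saline, -2.41, -1.27 and -1.64 after L-DOPA, and -2.89, -3.57 and -2.85 with zonisamide. Its groups did not overlap in the lesion comparison (0.79 ± 0.34, adjusted p = 0.586), in that of L-DOPA (1.30 ± 0.34, adjusted p = 0.163) or in that of zonisamide (-1.33 ± 0.34, adjusted p = 0.134). Ccl19, a ligand of CCR7, had L-DOPA levels of -1.96, -1.35 and -1.63, just above the -2.13, -2.52 and -2.36 of saline and the -2.88, -2.67 and -1.97 of zonisamide. It differed by 0.69 ± 0.28 with L-DOPA (adjusted p = 0.379) and by -0.86 ± 0.28 with zonisamide (adjusted p = 0.235). By group mean Ccl17 was highest after L-DOPA and lowest on the non-lesioned side, and saline and zonisamide did not differ beyond their spread (-0.03 ± 0.34).

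The other CC ligands were not set apart in this way. Ccl3 (MIP-1 alpha) stayed between -6.54 and -4.49 on all 12 arrays, and its changes ran from -0.25 to 0.22 over the 4 comparisons, with standard errors of 0.43. Ccl24, an eosinophil attractant, was at 2.70, 2.46 and 2.27 on the non-lesioned side and 2.80, 2.74 and 3.29 after saline on the lesioned side, without overlap, a change of 0.47 ± 0.18 (adjusted p = 0.560). This change of Ccl24 was 0.22 with normexp and quantile normalization and 0.19 with slide as a fixed block. Ccl9 had its 1 high value, -3.65, on L-DOPA replicate 1, and the other 11 arrays lay between -5.87 and -5.16. Of Ccl22, Ccl27 and Ccl6 the lowest adjusted p was 0.428, for Ccl6 with L-DOPA (0.91 ± 0.39).

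**Figure D2:**
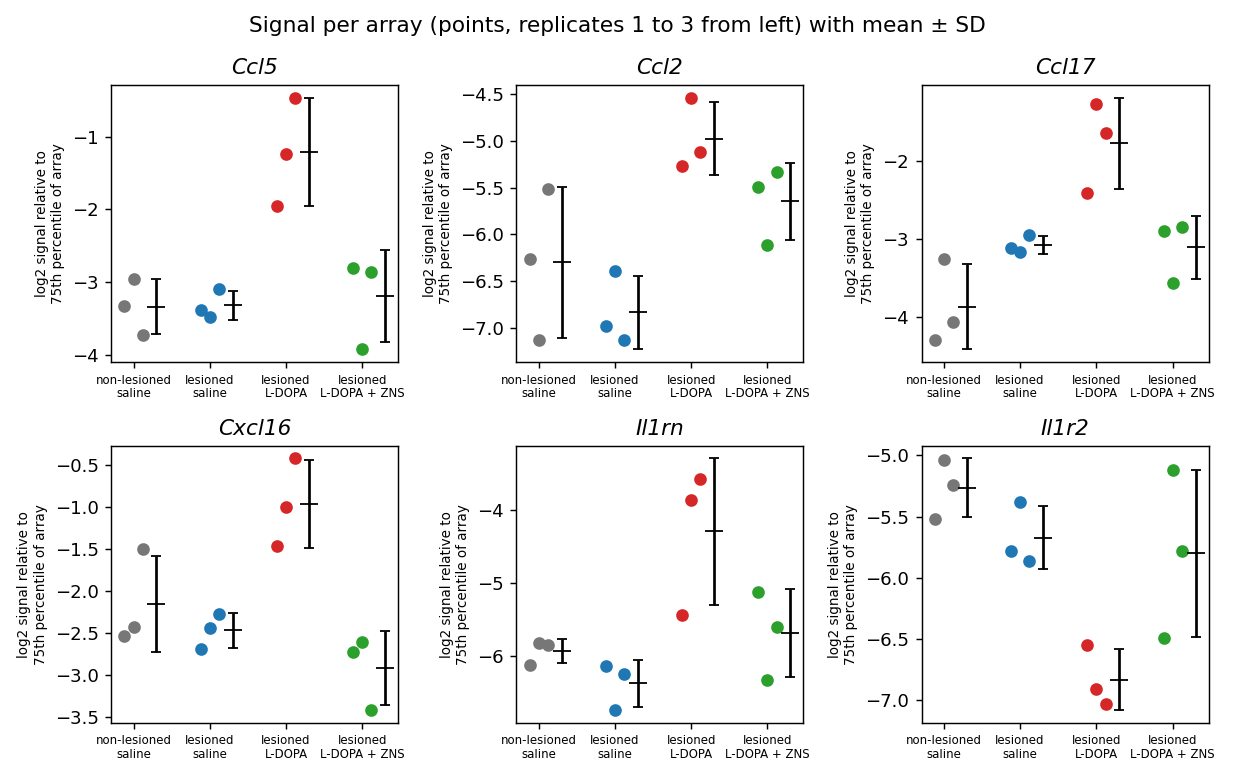
Log2 signal relative to the array's 75th percentile for the 6 members with the smallest p in the L-DOPA comparison, with each array as a point and the group mean ± SD (n = 3) beside it; each panel has its own axis. For Ccl5 the 3 L-DOPA points sit between -1.95 and -0.46 and the other 9 between -3.93 and -2.80, and for Il1r2 the L-DOPA points are the lowest of the panel.

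Among the CXC ligands, Cxcl16 was the 1 member that passed a test, in the fit without pairing. CXCL16 is made as a membrane-bound protein that binds CXCR6 and can be shed as a soluble attractant. Its level was -2.54, -2.43 and -1.50 on non-lesioned arrays, -2.69, -2.44 and -2.28 after saline, -1.47, -0.998 and -0.42 after L-DOPA, and -2.72, -2.61 and -3.42 with zonisamide. The L-DOPA arrays were the 3 highest of the 12, with non-lesioned replicate 3 just under them. With zonisamide added Cxcl16 fell by 1.95 ± 0.35 (3.87-fold; 95% interval -2.73 to -1.18; adjusted p = 0.0465).

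In that comparison equal replicate numbers shared a slide, and the difference of Cxcl16 was -1.25, -2.99 and -1.61 within the 3 slides. With the replicate number as a block the adjusted p of Cxcl16 was 0.0803, which does not pass, for the same change of -1.95. Its change kept its sign under all 27 alternatives, between -2.20 and -1.48, but the adjusted p ran from 0.0291 to 0.199 and was under 0.05 in 9 of the 27. With L-DOPA against saline Cxcl16 was higher by 1.51 ± 0.35 (adjusted p = 0.114), by 1.22 and 1.44 within the 2 slides that held both groups.

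Cxcl12 (SDF-1), the ligand of CXCR4, was at 0.78, 1.09 and 0.58 on the non-lesioned side, 1.52, 0.97 and 1.32 after saline, 1.32, 0.79 and 0.78 after L-DOPA, and 0.97, 0.86 and 1.41 with zonisamide. All of its groups overlapped, and its 2 tested probes gave lesion changes of 0.46 and 0.45. Cxcl17, a mucosal chemokine, was lower with zonisamide, with a change of -1.55 ± 0.75 without overlap (adjusted p = 0.441). It was above background on all 3 arrays of the L-DOPA group alone and entered the test through them, which favours a fall from that group. On the non-lesioned side it spanned -7.24 to -4.37 within 1 group. Cxcl14, bright in brain, was between 3.60 and 4.73 on every array. Of the 6 CXC ligands not tested, Cxcl2, a neutrophil attractant, was above background on 2 of 3 L-DOPA arrays and on none of the other 9.

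The receptor of CXCL12, Cxcr4, was the single CXC receptor of 6 that was detected. It stood at -4.96, -4.96 and -5.53 on the non-lesioned side, -4.72, -4.57 and -4.36 after saline, -4.71, -4.05 and -4.21 after L-DOPA, and -4.76, -5.07 and -5.15 with zonisamide. The lesioned saline arrays were above the non-lesioned ones (0.60 ± 0.22, adjusted p = 0.552) and the zonisamide arrays below both lesioned groups (-0.67 ± 0.22 against L-DOPA, adjusted p = 0.249).

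Of 5 CC receptors tested, 4 were lower with zonisamide, and none was called. Ccr6, the receptor of CCL20, was above background on the 3 L-DOPA arrays and on none of the other 9, and with zonisamide it was at least 1.12-fold lower (adjusted p = 0.432). It passed the filter only through those L-DOPA arrays, so its direction was set by how it came to be tested. Ccr9 reads CCL25 and had levels of -0.20, -0.17 and 0.63 after saline, -1.77, -0.92 and -1.14 after L-DOPA, and -0.93, -1.15 and -2.31 with zonisamide. Both drug groups were below saline for Ccr9 (-1.36 ± 0.57 with L-DOPA, adjusted p = 0.404; -1.55 ± 0.57 with both drugs, adjusted p = 0.656), while the non-lesioned side spanned 0.22 to -2.15.

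The interleukins themselves, 13 tested of 30 on the array, were split in direction: 6 were higher and 7 lower with L-DOPA, and 5 higher and 8 lower with zonisamide, which became 8 higher and 5 lower in both comparisons with quantile normalization. Il1b, the secreted IL-1 that drives acute inflammation, was at -6.80, -6.88 and -6.63 after saline, above background on none of these arrays, and at -6.00, -6.44 and -6.43 after L-DOPA, above background on all 3. It was thus at least 1.24-fold higher with L-DOPA (measured change 0.48 ± 0.18, adjusted p = 0.353). The zonisamide levels of Il1b, -6.63, -6.35 and -6.25, overlapped both, and the non-lesioned levels, -6.62, -6.97 and -6.54, overlapped saline and lay below L-DOPA. Il1b passed the filter on dim signals only through the L-DOPA arrays, so a higher level there follows in part from how it came to be tested. Il6 was above background on no array.

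Il11, an IL-6-type cytokine that signals through gp130, had the smallest p of the members for the lesion and for both drugs. It was at -3.37, -3.62 and -3.68 on the non-lesioned side, -2.92, -3.08 and -3.05 after saline, -3.14, -3.09 and -3.11 after L-DOPA, and -3.44, -3.86 and -3.77 with zonisamide. Saline and L-DOPA arrays all lay between -3.14 and -2.92, above every array of the non-lesioned side and of zonisamide. The changes were 0.53 ± 0.15 for the lesion (adjusted p = 0.489), -0.58 ± 0.15 with zonisamide added (adjusted p = 0.136) and -0.67 ± 0.15 for both drugs (adjusted p = 0.493).

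Il15, which sustains NK cells and memory T cells, was higher on all 3 lesioned saline arrays (-5.29, -4.88 and -5.01) than on the non-lesioned side (-6.61, -6.49 and -6.27), by 1.39 ± 0.41 (adjusted p = 0.494). After L-DOPA it scattered, at -5.12, -6.79 and -6.26, and with zonisamide at -4.98, -6.22 and -5.63. Replicate 1 of both drug groups was above its saline array on the same slide for Il15, and replicate 2 of both was below it. After normexp background correction with quantile normalization the lesion change of Il15 was 0.26. Il15 passed the filter only through the lesioned groups, which favours a rise on that side.

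Il16, a CD4 ligand that also has a neuronal form, was at -2.67, -2.55 and -2.70 after saline, -1.98, -2.18 and -2.34 after L-DOPA, and -2.51, -2.62 and -2.66 with zonisamide, with the L-DOPA arrays highest (0.47 ± 0.18, adjusted p = 0.363). On the non-lesioned side Il16 was at -2.50, -2.45 and -3.09. Il18, an IL-1 relative activated by caspase-1, was the least steady member, with levels from -3.68 to -1.94 on the non-lesioned side, -3.52 to -1.55 after saline, -3.10 to -1.44 after L-DOPA and -5.17 to -2.65 with zonisamide. Its standard error of 0.78 means that even its difference of -1.13 with zonisamide was within the spread.

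The alarmin Il33, released from damaged cells and read by ST2, was at -0.27, -0.09 and -0.31 on the non-lesioned side, -0.79, -0.79 and -0.55 after saline, -0.52, -0.51 and 0.15 after L-DOPA, and -0.69, -0.53 and 0.23 with zonisamide. It was lower on the lesioned side without overlap (-0.49 ± 0.26, adjusted p = 0.637), and replicate 3 of both drug groups, which shared a slide, had its highest levels. Il34, a neuronal ligand of the CSF-1 receptor that maintains microglia, was between 2.47 and 2.99 on all 12 arrays, and its changes lay between -0.06 and 0.21 (standard error 0.17). Il12a, a subunit of IL-12 and IL-35, was at -4.67, -4.49 and -4.33 after saline and -4.90, -5.17 and -4.73 with both drugs (-0.44 ± 0.18, adjusted p = 0.666). Il21, a T-cell cytokine, was lower with zonisamide, with a change of -0.93 ± 0.32 without overlap (adjusted p = 0.259), and it was above background on 1 of 3 zonisamide arrays. Il21 passed the filter only through the lesioned saline and L-DOPA arrays, which favours a fall with zonisamide.

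Of 12 interleukin receptor chains tested, 11 were lower with zonisamide than with L-DOPA alone (median -0.23; 9 to 11 under the other scalings), and 9 were higher with L-DOPA than with saline (median 0.17). Il7r, the IL-7 receptor chain of lymphocytes, was at -6.56, -5.02 and -6.27 on the non-lesioned side, -5.21, -5.84 and -5.04 after saline, -4.72, -4.64 and -4.38 after L-DOPA, and -5.93, -5.56 and -6.60 with zonisamide. The L-DOPA arrays were the 3 highest of the 12, and Il7r was lower with zonisamide, with a change of -1.45 ± 0.40 (adjusted p = 0.160). A second, dimmer Il7r probe gave -0.70.

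The IL-6 receptor chain Il6r was at -3.72, -3.68 and -3.66 after L-DOPA, above -3.96, -4.05 and -4.13 after saline (0.36 ± 0.21, adjusted p = 0.563). The zonisamide arrays, at -3.70, -4.10 and -3.38, overlapped both. The non-lesioned arrays, at -4.37, -3.73 and -4.17, overlapped those with saline and lay below those with L-DOPA. Il6st, the gp130 chain that Il6r and the IL-11 receptor share, was above background on no array by its probe. Il10rb, a chain shared by the receptors of IL-10 and IL-22, stayed between -1.20 and -0.50, with changes of at most 0.12 upward and -0.25 downward. Il13ra1, part of the type II IL-4 receptor, spanned -5.04 to -3.14, and both of its probes gave a positive L-DOPA change (0.43 and 0.50).

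The probes of Il4r, Il7r and Il13ra1 opposed each other in the lesion comparison. For Il4r the brighter probe gave 0.21 ± 0.33 and the dimmer -0.70 ± 0.62, for Il7r 0.59 ± 0.40 and -0.05 ± 0.31, and for Il13ra1 0.01 ± 0.40 and -0.04 ± 0.38. With zonisamide both Il4r probes were lower, by -0.48 and -1.60. Il18r1, which binds IL-18, was at -4.61, -4.81 and -4.44 after saline, -5.27, -6.70 and -5.90 after L-DOPA and -5.54, -6.04 and -7.64 with zonisamide, below saline in both (-1.34 ± 0.64, adjusted p = 0.471; -1.78 ± 0.64, adjusted p = 0.656). On the non-lesioned side Il18r1 spanned -6.50 to -4.52. Il18r1 passed the filter only through the lesioned saline and L-DOPA arrays, which favours a fall from saline to both drugs.

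The brakes of the IL-1 group stood apart from each other. Il1rn, the secreted antagonist that blocks the IL-1 receptor, was at -6.12, -5.82 and -5.85 on the non-lesioned side, -6.13, -6.74 and -6.24 after saline, -5.43, -3.86 and -3.57 after L-DOPA, and -5.12, -6.32 and -5.59 with zonisamide. Replicates 2 and 3 of L-DOPA were over 1 log2 unit above every other array, while L-DOPA replicate 1 was below zonisamide replicate 1 on the same slide. The change with L-DOPA was 2.08 ± 0.46 (4.23-fold, adjusted p = 0.0978), by 0.70 and 2.87 within the 2 slides that held both groups. With zonisamide it was -1.39 ± 0.46 (adjusted p = 0.240), by 0.31, -2.02 and -2.46 within slides.

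Il1r2, the decoy receptor that binds IL-1 without signalling, went the other way. It was at -5.52, -5.04 and -5.24 on the non-lesioned side, -5.78, -5.38 and -5.86 after saline, -6.55, -6.91 and -7.03 after L-DOPA, and -6.49, -5.12 and -5.79 with zonisamide. The 3 L-DOPA arrays were the lowest of the 12 and 2 of them were above background. Il1r2 passed the filter through the other groups and not through L-DOPA, which favours a lower level there. The change of Il1r2 was -1.16 ± 0.31 with L-DOPA (adjusted p = 0.174) and 1.03 ± 0.31 with zonisamide added (adjusted p = 0.199), where replicate 1 of the slide-sharing pairs differed by 0.06.

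Il18bp, which neutralises IL-18, was lower with L-DOPA without overlap (-0.70 ± 0.29, adjusted p = 0.397). Il36rn, the IL-36 antagonist, was at -3.31, -3.91 and -4.35 on the non-lesioned side and -3.53, -3.46 and -2.77 after saline, which overlapped (0.60 ± 0.29, adjusted p = 0.594), and with slide as a fixed block its sign turned (-0.06). Il1rapl1 and Il1rapl2 carry IL-1 receptor names but are known as synapse-organising proteins. Il1rapl2 was at -2.53, -3.11 and -2.68 after saline, -3.92, -3.97 and -4.25 after L-DOPA and -3.90, -3.06 and -5.21 with zonisamide, lower with L-DOPA without overlap (-1.27 ± 0.45, adjusted p = 0.320). Il1rapl1 was between -4.59 and -3.78 on 11 arrays and at -6.33 on L-DOPA replicate 3.

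Across the 52 members, 40 (76.9%) were lower with zonisamide than with L-DOPA alone, against 53.8% of all features, with a median change of -0.20 against -0.03. Groups did not overlap in 13 members that were lower (25.0%, against 10.5% of features) and in 2 that were higher (3.85%, against 6.82%). Among the 13 were Ccr6, Cxcl17 and Il21, which passed the filter with the L-DOPA arrays but not with those of zonisamide. For these the filter favours a fall. All 12 arrays were above background in 41 of 52 members and in 17094 of 19412 features, so the filter bears more on the members. An unadjusted p under 0.05 was found for 10 lower (7.77% of features) and 2 higher (4.64% of features). With quantile normalization 33 of the 52 members were lower with zonisamide, median -0.15, while the median of all features was 0.03; normexp gave 35 and the percentile over probes 36.

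With L-DOPA against saline 30 of 52 were higher, with a median of 0.16 against -0.03 over all features. An unadjusted p under 0.05 was found for 9 higher (17.3%, against 5.98% of features) and 6 lower (11.5%, against 5.32%). Without overlap 12 members were higher and 8 lower, against 11.7% and 10.8% of features. Among the 12 were Ccl2, Ccr6 and Il1b, which passed the filter with the L-DOPA arrays but not with those of saline. Ccl2 and Il1b were also among the 9. For these the filter favours a rise. Il1r2, among the 6 and the 8, passed with saline but not with L-DOPA, which favours a fall. For the lesion 34 were higher, and 7 were higher and 4 lower without overlap, against 8.66% and 8.34% of features. Among the 7 was Il15, which did not pass the filter on the non-lesioned side. The lesion median of 0.09 lay near the 0.05 of all features; quantile normalization moved all features by over 0.1, to -0.09, and the members with them, to -0.08, so no direction is given for the members as a whole. For both drugs against saline, 35 of 52 were lower (median -0.13 against -0.05), 28 were higher under quantile normalization (0.10 against 0.07), and the direction again follows the scaling.

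**Figure D3:**
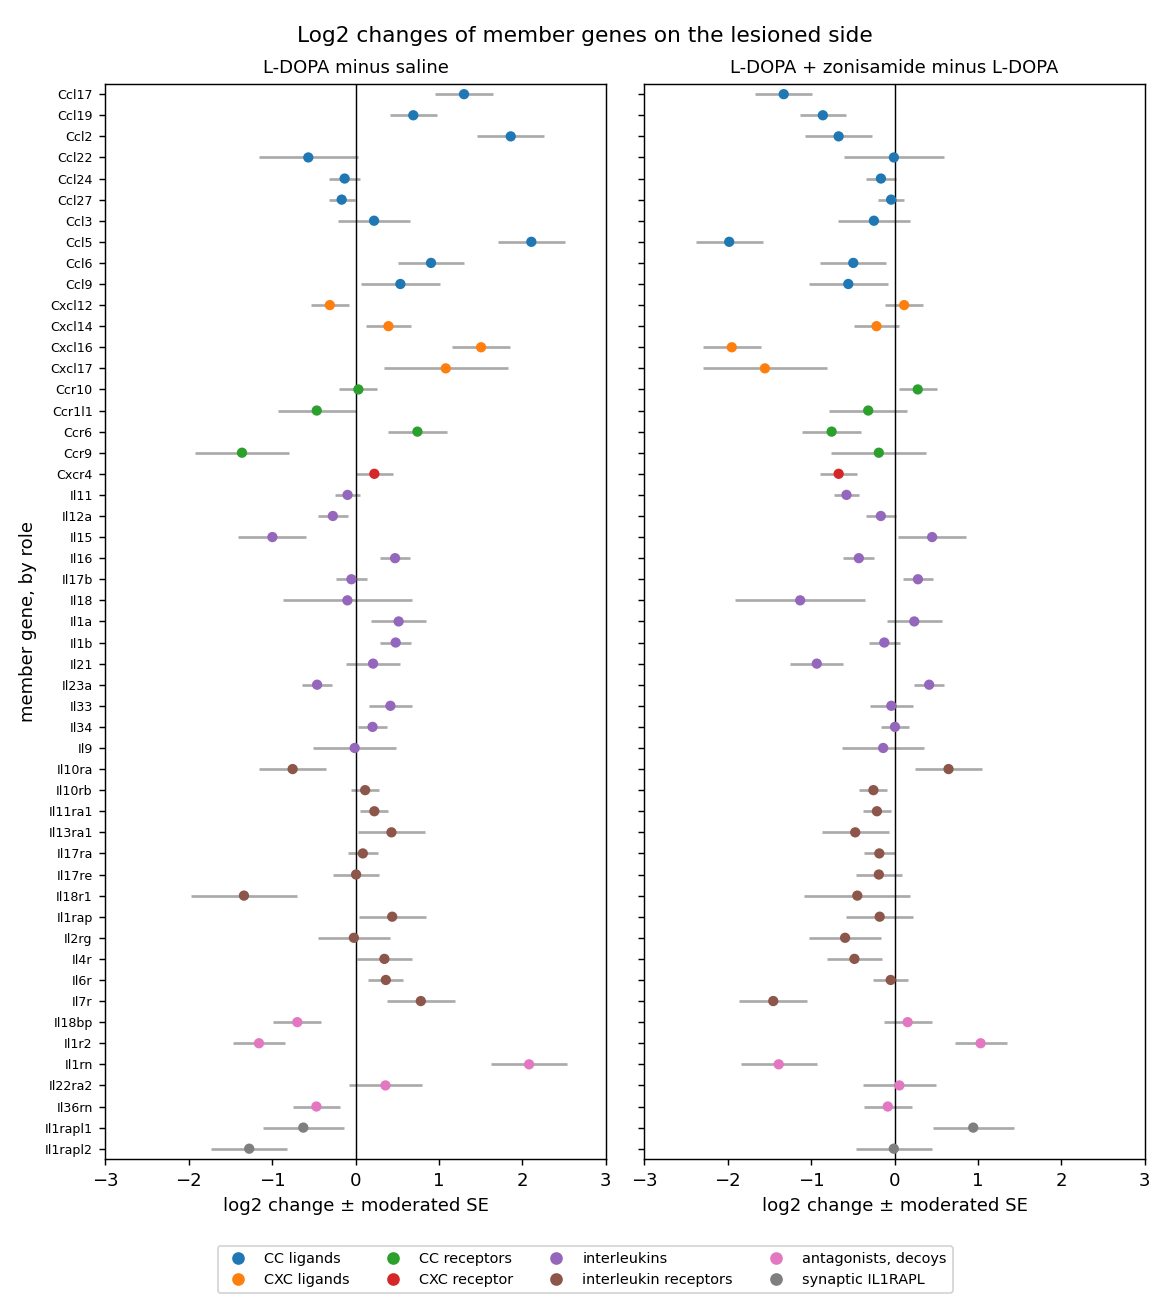
Log2 change ± moderated standard error of 51 of the 52 members (rows, coloured by role) for L-DOPA minus saline (left) and for L-DOPA with zonisamide minus L-DOPA (right), both on the lesioned side with 3 arrays per group. Ccl5 and Il1rn lie past 2 on the left. On the right all 10 CC ligands are at or left of 0. Cxcl16 is the single called member, in the fit without pairing. The panels share the L-DOPA arrays, so their mirror image is partly set by the design.

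Genes that pass on or accompany these signals were taken from lists of the pathways. Of 19 genes of the IL-1 to NF-kappa-B route, 19 of the JAK-STAT route, 7 relatives of IL-6 and 12 other chemokine genes and partners, none was called in any comparison. Of 15 other cytokines and receptors, 2 were called higher with L-DOPA and 1 lower with zonisamide, beside 0.33% and 0.392% of all features. The zonisamide comparison gave 13 of 19 NF-kappa-B genes lower, 7 of 7 IL-6 relatives, 10 of 12 chemokine partners, 13 of 15 other cytokines, but 8 of 19 JAK-STAT genes, beside 53.8% of all features.

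Tnfrsf1b, the second TNF receptor, was at -4.44, -4.39 and -4.01 after saline, -3.19, -2.66 and -2.75 after L-DOPA and -4.41, -4.71 and -4.26 with zonisamide. It rose by 1.41 ± 0.19 with L-DOPA (adjusted p = 0.0184) and fell by 1.59 ± 0.19 with zonisamide (adjusted p = 0.0177). Tgfb1, which encodes TGF-beta 1, was at -4.79, -4.84 and -4.91 after saline, -3.59, -2.59 and -2.73 after L-DOPA and -4.28, -4.96 and -4.18 with zonisamide. It rose by 1.88 ± 0.33 with L-DOPA (adjusted p = 0.0478), and its zonisamide change of -1.51 ± 0.33 did not pass (adjusted p = 0.0844). The 3 calls end when slide is a fixed block (adjusted p = 0.207 for Tnfrsf1b and 0.342 for Tgfb1 with L-DOPA, and 0.103 for Tnfrsf1b with zonisamide) and held with slide as a random block.

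Close behind were Bcl3, an NF-kappa-B partner (-1.33 ± 0.26 with zonisamide, adjusted p = 0.0605), and Cmtm3, a chemokine-like factor (-0.96 ± 0.18, adjusted p = 0.0605). Tnf was at -3.97, -4.89 and -4.23 after saline and -3.21, -2.44 and -3.30 after L-DOPA, without overlap (1.38 ± 0.40, adjusted p = 0.213), and the zonisamide arrays (-3.11, -3.33 and -3.69) overlapped those of L-DOPA. Osm, an IL-6 relative, was higher on the lesioned side without overlap (1.11 ± 0.36, adjusted p = 0.504).

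Markers of other cells differed between the same groups. All 7 choroid plexus markers were higher with L-DOPA (median 3.08) and lower with zonisamide (median -1.60), with mean levels per array of -4.09 to 0.25 in the zonisamide group, and none was called. Ttr, the defining marker, was at -0.74, 4.35 and 3.30 after saline, 4.31, 7.27 and 6.89 after L-DOPA, and 4.28, 2.72 and 6.67 with zonisamide. On the 2 arrays outside the L-DOPA group with Ttr above 6, non-lesioned replicate 3 and zonisamide replicate 3, Ccl5 was at -3.73 and -2.86, Cxcl16 at -1.50 and -3.42 and Il1rn at -5.85 and -5.59. Ccl2 was at -5.51 and -5.33 there, on both arrays the highest of its group, and Ccl17 at -4.05 and -2.85. With Ttr as a covariate the L-DOPA changes were 1.86 for Ccl5, 1.74 for Il1rn, 1.23 for Ccl2, 1.19 for Cxcl16 and 1.01 for Ccl17. None of these passed (adjusted p = 0.655 for Ccl2). The L-DOPA median over all members was 0.020 with this covariate and 0.16 without it. The zonisamide change of Cxcl16 was -1.82 with the covariate (adjusted p = 0.0956).

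All 6 endothelial markers tested were lower with zonisamide (median -0.84; mean levels per array -1.57 to -1.32 with L-DOPA and -2.36 to -2.01 with zonisamide), and 5 of the 6 were higher with L-DOPA. The 3 neutrophil markers tested of 5 on the array were higher with L-DOPA (median 0.85) and lower with zonisamide (median -1.22), with mean levels per array of -6.08 to -5.14 after saline, -4.93 to -4.46 after L-DOPA and -6.11 to -5.28 with zonisamide; Elane and Ngp were not detected in any whole group. Of 13 microglia and macrophage markers, all were higher on the lesioned side (median 0.25), 5 were higher with L-DOPA and 3 with zonisamide (median -0.33); their mean level per array was -0.23 to 0.37 on the non-lesioned side, 0.47 to 0.74 after saline, 0.35 to 0.61 after L-DOPA and -0.09 to 0.15 with zonisamide. Of 8 T and NK cell markers on the array 5 were tested, with mean levels per array of -5.33 to -4.74 after saline, -5.47 to -5.22 after L-DOPA and -5.75 to -5.18 with zonisamide; Cd3g, Cd8a and Klrb1 were not detected in any whole group. Of these, 2 of the 5 were higher with L-DOPA and 2 with zonisamide. The 2 erythroid markers tested and 6 of 7 meningeal markers were higher with L-DOPA (medians 0.49 and 0.45). With zonisamide the 2 erythroid and 6 of the 7 meningeal markers were lower (medians -0.91 and -0.40). The 2 perivascular macrophage markers tested went the other way, lower with L-DOPA (median -0.40) and higher with zonisamide (median 0.92). The part of choroid plexus, endothelium, blood, meninges, neutrophils, macrophages and microglia in the levels of the members was not tested.

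**Figure D4:**
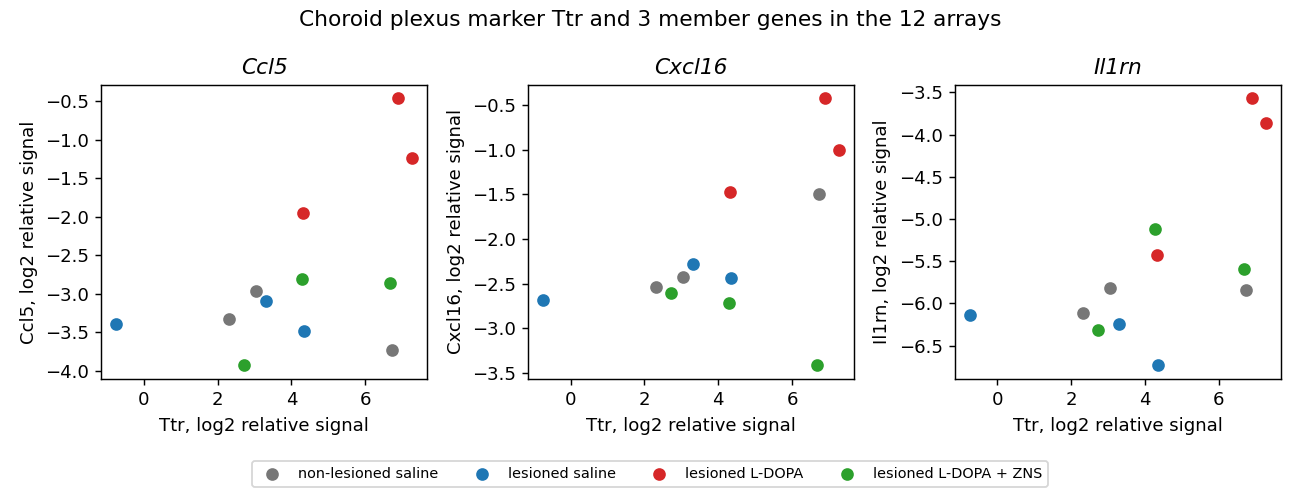
Log2 level of Ccl5, Cxcl16 and Il1rn (vertical axes) against that of the choroid plexus marker Ttr (horizontal axis) on the 12 arrays, coloured by group. The 3 L-DOPA arrays are the highest for Ccl5 and Cxcl16, with Ttr between 4.31 and 7.27. For Cxcl16, non-lesioned replicate 3 (Ttr 6.73) lies at -1.50, just under L-DOPA replicate 1 at -1.47. Zonisamide replicate 3 (Ttr 6.67) lies at -3.42. The part of choroid plexus in these levels was not tested.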

How the data were processed

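Total RNA of striatum was labelled with Cy3 and hybridised to 12 single-colour Agilent arrays of 62976 spots, 4259 of them controls. The authors deposited scanner output of Agilent Feature Extraction, version 10.7.3.1 by the file headers and 10.7 by the submitters' processing notes. The deposited processed signal is an intensity, background-subtracted and detrended within the array per the file headers and not scaled between arrays. The authors' table of values held the same intensity on all 62976 spots of each array (relative tolerance 1e-06) and served as an alternative. The median intensity of spot and background, unsubtracted per the file headers, was used for normexp only.

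Spots marked as outliers were left out, spots of a probe averaged as log2, and each array's 75th percentile subtracted. A probe was kept when at least 0.5 of its spots were well above background on all 3 arrays of at least 1 group, by the files' mark, and it had a value on every array. Symbols came from RefSeq accessions: 17328 probes had 1 symbol and 13039 none. The probe with the highest mean stood for a gene. The members, pathway lists and marker lists were chosen with earlier results of these data known. Il1r1 had no matching probe here and is not analysed. The values of 1 tested member are not reported here, in the text or the figures; it stays in the counts and medians. Named with array values were the called members, the 6 with the smallest p in each comparison and a list of well-known members; others chosen after their values were seen are Ccl9, Ccl19, Ccr6, Cxcl2, Cxcl14, Cxcl17, Il18bp and Il21.

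Limma 3.58.1 (R 4.3.3, and the package data.table, version 1.17.8) fitted the 4 groups in 1 model with 8 residual degrees of freedom; 4 contrasts were tested two-sided. Its calls were tested on simulated data with independent noise and no shared slides, so that test does not bear on slide effects. An "at least" fold raises each array of a group wholly below background to the lowest signal that array marked above it. The smallest p of an exact permutation of 3 arrays against 3 is 0.1, so no such test was run. The labels give 3 animals per group; the number of arrays limits the precision.

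The arrays lay on 5 slides. Equal numbers shared a slide in all 3 pairs of the zonisamide comparison. Their deviations from the group means had correlations of 0.37, 0.19 and 0.25. The main fit held no pairing in any comparison, so its zonisamide results are unpaired. The replicate block, which pairs these arrays, was run as an alternative. Alternatives were quantile normalization, normexp (offset 50) with quantile normalization, other probe filters and rules, only the groups compared, an intensity trend, array weights, the replicate block, slide as a fixed or random block, their table of values, and leaving out each array. The percentile over probes and Ttr as a covariate were added after seeing the data.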

Additional observations from a re-analysis of the deposited data

How the results depend on the processing

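Of the values of single genes under 27 alternatives, 686 kept their direction and their side of the threshold, 48 lost a call, 14 gained one and 2 turned sign, Il36rn for the lesion with slide as a fixed block (-0.061) and Il12a for both drugs with normexp (0.019), where the cause was not tested. The 1 member called lower with zonisamide, Cxcl16, became 0 members with quantile normalization, normexp, only the 2 groups compared, the replicate block, slide as a fixed block, the percentile over probes and Ttr as a covariate, and 2 (with Ccl5) with array weights and slide as a random block; without any filter 1 was called, but it was Cxcl2 (-1.50, adjusted p = 0.0478) and not Cxcl16 (adjusted p = 0.0724). Leaving out 1 array gave 0 to 3 members. The Cxcl16 call held without non-lesioned replicate 3 (adjusted p = 0.0359) and L-DOPA replicate 1 (0.0291), and was lost without any of the other 10 arrays, at most at 0.169 without L-DOPA replicate 2. The members called higher with L-DOPA, 0, became 1 with quantile normalization (Ccl5, adjusted p = 0.0495), 1 with slide as a random block (Ccl5, 0.0486), 1 with no filter (Cxcl2, 0.0256), 5 with array weights (Ccl5, Cxcl16, Il1rn, Ccl2 and Ccl17), and 0 to 2 without 1 array, the 2 being Ccl5 and Il1rn without L-DOPA replicate 1. The F test gave 1 member with array weights and 0 to 1 without 1 array, the 1 again without L-DOPA replicate 1. The shares of all features called under these alternatives were not recorded. Whether the members gained or lost calls more than other features therefore cannot be read from these counts.

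The member medians moved as follows, beside an SD between arrays of 0.10. For the lesion the median of 0.09 became -0.077 with quantile normalization, -0.048 with normexp and -0.079 with slide as a fixed block. For L-DOPA the median of 0.16 became 0.020 with Ttr as a covariate and ran from 0.091 to 0.27 without 1 array, highest without lesioned saline replicate 3. For zonisamide -0.20 became -0.10 with normexp and ran from -0.32, without zonisamide replicate 3, to -0.18. For both drugs -0.13 became 0.10 with quantile normalization and 0.033 with normexp, and ran from -0.20 to -0.027 without zonisamide replicate 1. Normexp adds an offset of 50, which by construction draws dim signals together: with it Il1rn's L-DOPA change was 0.82, that of Il1r2 -0.15, and Il7r's zonisamide change -0.40. Of the accompanying genes, Tgfb1 kept its L-DOPA call under 10 of 27 alternatives: it was lost with normexp, no filter, only the 2 groups compared, the intensity trend, the replicate block, slide as a fixed block and Ttr as a covariate (adjusted p at most 0.422), and, of the single arrays left out, it held only without non-lesioned replicate 3 or L-DOPA replicate 1 (up to 0.183 otherwise). Tnfrsf1b lost its L-DOPA call with only the 2 groups compared, slide as a fixed block and Ttr as a covariate (up to 0.247), and without lesioned saline replicates 1 or 2 or L-DOPA replicates 2 or 3 (up to 0.102) and its zonisamide call with normexp, only the 2 groups compared and slide as a fixed block (up to 0.150), and without L-DOPA replicates 2 or 3 or zonisamide replicate 2 (at most 0.10). The replicate block ended no other call in the zonisamide comparison. Signals near background limit Ccl2, Ccr6, Cxcl17, Il10ra, Il1b, Il21 and Il9 most, since they were above it on 9 arrays or fewer.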

Other observations

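Among the untested members, 24 genes were above background on some arrays but on all 3 of no group. They held 5 CC ligands, 4 CXC ligands, 1 CC receptor, 5 interleukins, 8 interleukin receptor chains and 1 decoy or antagonist, and no CXC receptor. The lowest and highest changes of a tested member were -0.56 and 1.39 for the lesion, -1.36 and 2.11 with L-DOPA, -1.98 and 1.03 with zonisamide added, and -1.78 and 1.19 with both drugs against saline. Pf4, a platelet chemokine outside the member rule, was higher with L-DOPA by 1.00 ± 0.38 (adjusted p = 0.353) and lower with zonisamide, with a change of -1.29 ± 0.38 without overlap (adjusted p = 0.187). Ackr3, the scavenging receptor of CXCL12, was lower with zonisamide, with a change of -0.60 ± 0.21 without overlap (adjusted p = 0.267), beside the lower Cxcr4. Cx3cl1, the neuronal ligand of the microglial receptor CX3CR1, was between 5.63 and 6.28 on all 12 arrays, and its changes lay between -0.16 and 0.24.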
